A study of Mus musculus with 8 samples.

Results

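The genes described here are 34 genes of protein folding in the endoplasmic reticulum (ER) and of the unfolded protein response, out of 18193 genes with a named probe set. They were listed by name for their known function, though with earlier results of these data known. They comprise ER chaperones, co-chaperones, disulfide and proline isomerases, stress sensors, ER degradation factors and translocon subunits. All 34 had at least 1 probe set, and all 34 passed the filter on low values. Where a gene had several probe sets, the one of highest mean over the arrays was used. Expression was measured in fibroblasts isolated from mouse embryos at E14.5, on a C57BL6/J background. Wild-type cells (Hif-p4h-1+/+) and cells of embryos lacking the gene (Hif-p4h-1-/-) were each kept in normoxia or in hypoxia, which gave 4 groups. Each group had 2 arrays, 1 in a first set and 1 that the labels mark as second, 8 arrays in all. The sources used here give neither the oxygen level nor the time in hypoxia, and do not say whether both arrays of a group stem from separate cultures. The p-values therefore reflect only the spread among these arrays, possibly a technical one. All values are log2 expression values per probe set, and paired values below give the first set, then the second.

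The ER folds proteins that enter it through the translocon. BiP (Hspa5) and GRP94 (Hsp90b1) bind unfolded chains, calreticulin and calnexin hold glycoproteins, and protein disulfide isomerases, re-oxidized by Ero1 enzymes, form disulfide bonds. When unfolded protein accumulates, the sensors IRE1 (Ern1), PERK (Eif2ak3) and ATF6 lower translation and raise chaperone and degradation genes, in part through spliced Xbp1 and through promoter motifs called ER stress elements. Ero1a is also known as a target of hypoxia-inducible factor (HIF), the factor that prolyl hydroxylases such as Hif-p4h-1 (gene Egln2) mark for destruction when oxygen is present.

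The arrays differed in ways that bear on all results. Arrays of the second set deviated together from those of the first, with a correlation of 0.710 to 0.850 across genes between pairs of groups, so set was a term of the model. Egln2 was at 8.84 and 9.07 in wild-type normoxia, 8.0 and 8.34 in knockout normoxia, 8.95 and 9.13 in wild-type hypoxia and 8.66 and 8.85 in knockout hypoxia. It was lower in the knockout in both sets, but in hypoxia that difference did not pass the test (adjusted p = 0.725, limma), and no source used here says whether its probe set lies in the deleted part. All 8 hypoxia response genes checked were higher in hypoxia over both genotypes, among them Pdk1 by 3.35 ± 0.07 and Ldha by 1.04 ± 0.04. The mean log2 value over 12 fibroblast markers lay between 11.3 and 11.8 on the arrays, though Lum, one of them, lay only between 5.46 and 6.44 on the second-set arrays. The skeletal muscle marker Myh3 was at 8.53 and 8.35 on the first-set wild-type arrays (normoxia and hypoxia) and between 3.58 and 4.0 on the other arrays. Of 7 tested skeletal muscle markers 0 were called between genotypes over both oxygen conditions, with a median difference of -1.02, and 1 was called higher in the second set, with a median of -0.95. Of 11 tested macrophage and leukocyte markers, 5 were lower in the knockout over both oxygen conditions (median -1.26), 9 were lower in the second set (median -1.13), and 2 were lower and 1 higher in hypoxia. In bulk RNA, fewer cells of a type and less RNA per cell cannot be told apart.

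Hypoxia changed 16 of the 34 ER genes over both genotypes: 12 fell and 4 rose. Those that fell were Dnajb11, Manf, Pdia6, Ero1b, Calr, Sdf2l1, Creld2, Pdia3, Hspa5, Syvn1, Edem1 and Xbp1. Those that rose were Ero1a, Dnajb9, Dnajc3 and Sec61b. Among all 13647 tested genes, 15.2% were called lower and 13.6% higher in the same comparison, by limma with Benjamini-Hochberg adjusted p under 0.05. The same shares stand beside the counts by role given below. The median log2 difference was -0.10 over the 34 genes and 0.01 over all tested genes, and 19 of the 34 had an unadjusted p under 0.05, against 39.7% of all tested genes. Of the 16 calls, 12 held whichever array was left out. The exceptions were Edem1, which held in 6 of 8 such fits, Syvn1 and Xbp1, which held in 2 each, and Sec61b, which held in none. The RNA controls moved with oxygen as well: the 3′ minus 5′ difference of the actin control exceeded normoxia under hypoxia in each of 4 array pairs (by 0.10 to 0.17), as did that of the Gapdh control (by 0.04 to 0.33). Their part in the oxygen results was not tested.

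**Figure D1:**
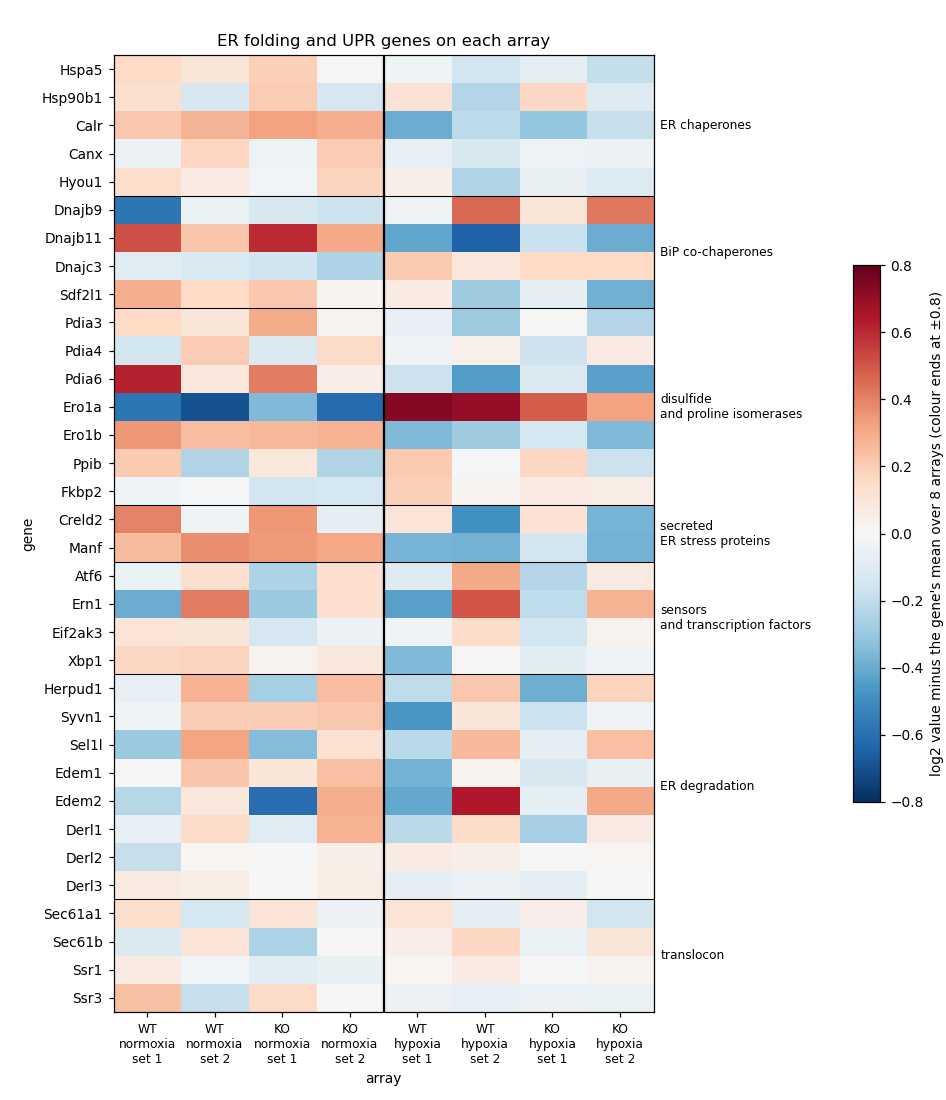
Each row is a gene and each column an array, with colour for the log2 value minus the gene's mean over the 8 arrays, red above and blue below, and roles named at the right. Ero1a turns from blue to red between the 4 normoxia columns and the 4 hypoxia columns, Dnajb11, Calr, Manf and Pdia6 turn the other way, and Ern1, Sel1l and Herpud1 alternate with the set.

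The ER stress element, which binds ATF6 and XBP1 together with NF-Y, was looked for in the promoters because so many of these genes are known to share it. It is CCAAT and CCACG separated by 9 bases, and it was searched on both strands of windows from 250 bases before to 50 bases after each annotated start (RefSeq, GRCm38.p6). A window was found for 29 of the 34 genes. Manf, Derl1, Atf6, Sec61a1 and Hyou1 had none. The element was present in 10 of those 29 genes (34.5%), against 37 of 27025 genes in the whole table (0.137%) and 0.119% of all 32851 windows. Since it was chosen because these genes are known to share it, the higher share among them is no independent result. By the call in hypoxia, it was found in 6 of 11 genes that fell, in 1 of 4 that rose and in 3 of 14 that did not pass. The 10 stretches that carry it are shown 5′ to 3′ on the strand of the gene, with the CCAAT and CCACG parts, or their complements ATTGG and CGTGG, in capitals. The first 6 are those of genes that fell, Dnajc3 rose, and the last 3 did not pass the test.

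Calr: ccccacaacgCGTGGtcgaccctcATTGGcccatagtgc
Pdia6: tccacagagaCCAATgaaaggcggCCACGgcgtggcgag
Ero1b: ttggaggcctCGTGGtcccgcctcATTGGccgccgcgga
Creld2: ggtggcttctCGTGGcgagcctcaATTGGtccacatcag
Syvn1: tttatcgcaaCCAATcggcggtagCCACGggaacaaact
Hspa5: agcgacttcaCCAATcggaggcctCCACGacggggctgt
Dnajc3: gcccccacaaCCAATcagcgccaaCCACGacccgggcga
Canx: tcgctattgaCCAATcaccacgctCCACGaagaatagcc
Derl3: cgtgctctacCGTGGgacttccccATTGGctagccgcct
Hsp90b1: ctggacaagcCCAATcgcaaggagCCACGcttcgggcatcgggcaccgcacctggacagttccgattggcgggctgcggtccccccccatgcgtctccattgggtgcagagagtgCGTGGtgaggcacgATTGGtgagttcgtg

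On the plus strand of their chromosomes lie the stretches of Pdia6 (chr12:17266481-17266519), Ero1b (chr13:12565672-12565710), Creld2 (chr15:88819510-88819548), Syvn1 (chr19:6046522-6046560), Hspa5 (chr2:34772015-34772053), Dnajc3 (chr14:118937817-118937855) and Derl3 (chr10:75893232-75893270). Those of Calr (chr8:84847065-84847103), Canx (chr11:50325790-50325828) and Hsp90b1 (chr10:86705523-86705666) lie on the minus strand. All of these bases precede the annotated start of the gene. The Hsp90b1 promoter holds 2 copies, in opposite orientations. In Calr, Creld2, Ero1b and Derl3 the element runs on the complement of the gene's strand, while in Hspa5, Pdia6, Syvn1, Canx and Dnajc3 it runs on the gene's own strand. So the same letters stood before genes that fell, before Dnajc3, which rose, and before Hsp90b1 and Canx, whose probe sets of highest mean did not pass the test. Another Canx probe set was called lower, at -0.655 ± 0.096. None of the 70 other ER genes with a window (from lists given further on) held the element. Outside the 34 genes, 8 tested genes held it, of which 0 were called lower and 1, Adcy3, was called higher in hypoxia.

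A shorter form, ER stress element II (ATTGG and CCACG separated by 1 base), was found in Dnajb11, just after its annotated start, and in Herpud1, against 0.0444% of all genes. The Herpud1 stretch (chr8:94386367-94386397, plus strand) is shown with both parts in capitals, and the Ero1a promoter (chr14:45318621-45318710, minus strand) with the HIF core motifs ACGTG and GCGTG, or their complements, in capitals, because Ero1a was the gene that rose most.

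Herpud1: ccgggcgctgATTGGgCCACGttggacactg
Ero1a: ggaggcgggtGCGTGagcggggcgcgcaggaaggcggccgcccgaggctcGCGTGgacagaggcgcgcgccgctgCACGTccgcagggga

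ACGTG was present in 12 of the 29 windows (41.4%), against 21.8% of all genes, and GCGTG in 20 (69.0%), against 35.2%. Both are short, and their last letters CGTG overlap the CGTGG of an ER stress element, as in the Calr stretch. ACGTG stood in 3 of 11 genes that fell, 3 of 4 that rose and 6 of 14 that did not pass. GCGTG stood in 8 of 11 that fell, 3 of 4 that rose and 9 of 14 that did not pass. The XBP1 motif TGACGTGG was in 0 of the 29 windows, against 0.714% of all genes, and the ATF4-type motif TGATGCAA in 1, that of Herpud1, against 1.03%. A match is a description of the letters, not a bound site.

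**Figure D2:**
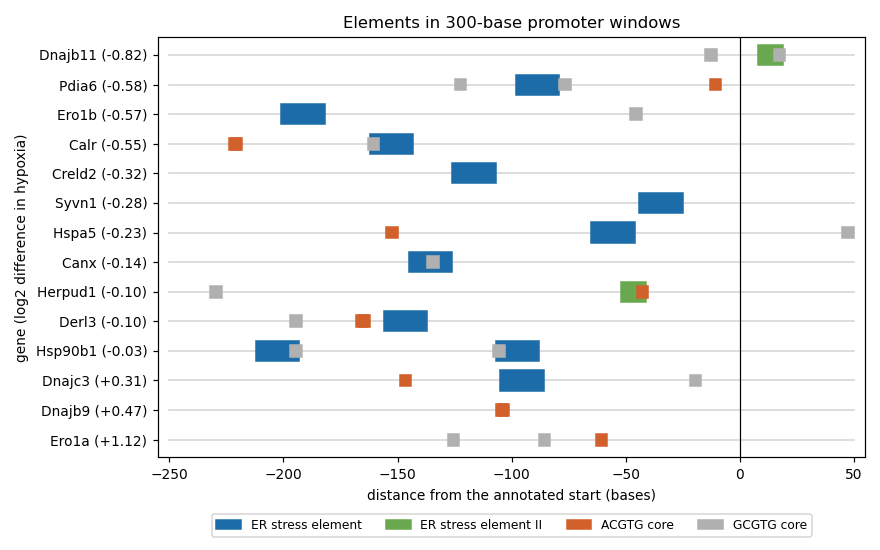
Horizontal lines are the promoter windows of the 12 genes with an ER stress element of either form, with Ero1a and Dnajb9 added, ordered from the largest fall to the largest rise in hypoxia (log2 difference in brackets). The x axis is the distance in bases from the annotated start, and boxes mark the elements and the HIF core motifs. The blue ER stress elements lie before the start in genes that fell, in genes that did not pass and in Dnajc3.

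Among the 5 ER chaperones, calreticulin and BiP fell and the other 3 did not pass the test. Calr, which encodes the lectin chaperone calreticulin, was at 13.0 and 13.06 in wild-type normoxia and 13.11 and 13.08 in knockout normoxia. In hypoxia it was at 12.39 and 12.58 in wild type and at 12.48 and 12.6 in knockout, so all 4 hypoxia arrays lay below all 4 normoxia arrays. It fell by 0.55 ± 0.05 (SE, 4 against 4 arrays, 1.46-fold, adjusted p = 0.000233, limma), and its 3 probe sets fell by 0.55, 0.515 and 0.57.

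Hspa5, the main ATP-driven chaperone of the ER and its standard stress marker, went from 13.8 and 13.74 to 13.61 and 13.49 in wild type and from 13.83 and 13.65 to 13.57 and 13.45 in knockout. The groups did not overlap, but the fall was small, 0.225 ± 0.037 (1.17-fold, adjusted p = 0.00342, limma). Of its other probe sets, 1 also fell and 1 did not pass, and with the mean of its probe sets the adjusted p was 0.0744.

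Hsp90b1, the ER form of HSP90, had a difference of -0.03 ± 0.04 (adjusted p = 0.612). Its values followed the set: 13.42, 13.5, 13.41 and 13.46 in the first set against 13.16, 13.16, 13.06 and 13.19 in the second. Those of its second probe set did not, with 12.94, 13.28, 13.22 and 13.28 against 13.19, 13.19, 13.2 and 13.17. Canx, the membrane-bound lectin chaperone, had -0.14 ± 0.06 (adjusted p = 0.11). Hyou1, a nucleotide exchange factor for BiP, had -0.18 ± 0.08 (adjusted p = 0.14). For both of these the difference came mainly from the second set, with -0.275 against -0.01 for Canx and -0.30 against -0.065 for Hyou1.

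All 4 co-chaperones of BiP changed, in opposite directions. Dnajb11 (ERdj3), which delivers unfolded chains to BiP, had the largest fall of the 34 genes. It was at 11.04 and 10.75 in wild-type normoxia, 10.11 and 9.88 in wild-type hypoxia, 11.12 and 10.83 in knockout normoxia and 10.35 and 10.13 in knockout hypoxia. The ranges of the oxygen conditions did not overlap, and the fall was 0.82 ± 0.05 (1.76-fold, adjusted p = 4.81e-05, limma). Sdf2l1, a stress-induced partner of Dnajb11 and BiP, fell by 0.345 ± 0.064 (adjusted p = 0.00555). Its arrays ran from 9.05 to 9.32 in normoxia and from 8.64 to 9.09 in hypoxia, which overlap across sets but not within one.

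Dnajc3 (P58IPK), a co-chaperone that also inhibits PERK, rose by 0.31 ± 0.04 (adjusted p = 0.00184, limma). In wild type, then knockout, it read 11.58, 11.56, 11.52 and 11.43 on the normoxia arrays and 11.89, 11.77, 11.84 and 11.84 on the hypoxia arrays, with no overlap. This call rests on its probe set of highest mean: its second gave 0.07 (adjusted p = 0.502), and another was called lower at -0.25. Dnajb9 (ERdj4), which represses IRE1, rose by 0.47 ± 0.09 (adjusted p = 0.00741). Its hypoxia arrays ran from 10.02 to 10.52 and its normoxia arrays from 9.48 to 10.01, so they all but touched. The wild-type normoxia array of the first set, at 9.48, was the lowest, and without it the difference was still called.

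The enzymes of disulfide formation split most widely. Ero1a, the oxidase that recharges protein disulfide isomerase, was at 9.94 and 9.82 in wild-type normoxia and 10.16 and 9.9 in knockout normoxia. In hypoxia it was at 11.25 and 11.22 in wild type and at 11.0 and 10.84 in knockout. Every hypoxia array was above every normoxia array, and the rise was 1.12 ± 0.05 (2.18-fold, adjusted p = 1.6e-05, limma). Its 3 probe sets rose by 1.12, 0.995 and 0.73.

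Ero1b, the paralog with the same activity, moved the other way. It was at 7.06, 6.96, 6.98 and 6.99 on the normoxia arrays and at 6.36, 6.43, 6.57 and 6.36 on the hypoxia arrays, again without overlap, and fell by 0.57 ± 0.09 (1.48-fold, adjusted p = 0.0025). Its other 2 probe sets were below the filter on low values, and a mean over all 3 gave -0.07 (adjusted p = 0.603).

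Pdia6, a disulfide isomerase that also binds IRE1, was at 12.9 and 12.38 in wild-type normoxia, 12.12 and 11.84 in wild-type hypoxia, 12.7 and 12.34 in knockout normoxia and 12.17 and 11.85 in knockout hypoxia. It fell by 0.585 ± 0.050 (1.5-fold, adjusted p = 0.000244, limma), with no overlap and with both probe sets called. Pdia3 (ERp57), which works with calreticulin and calnexin on glycoproteins, fell by 0.29 ± 0.05 (adjusted p = 0.00282) from a range of 13.14 to 13.41 to a range of 12.83 to 13.12. Its second probe set, at -0.14, did not pass (adjusted p = 0.587). Pdia4, at -0.045 ± 0.059 (adjusted p = 0.628), and the proline isomerase Ppib (cyclophilin B), at 0.095 ± 0.046 (adjusted p = 0.168), did not pass. Fkbp2, another proline isomerase, was higher in all 4 pairs but missed the threshold, at 0.17 ± 0.06 (adjusted p = 0.0597).

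Both secreted ER stress proteins fell. Manf, a factor released from stressed cells that binds BiP, was at 12.18 and 12.3 in wild-type normoxia, 11.56 and 11.55 in wild-type hypoxia, 12.27 and 12.24 in knockout normoxia and 11.78 and 11.55 in knockout hypoxia. The conditions were well separated, and the fall was 0.64 ± 0.06 (1.56-fold, adjusted p = 0.00033, limma). Creld2, which is retained and secreted under ER stress, fell by 0.32 ± 0.06 (adjusted p = 0.00462). Its values depended on the set more than on oxygen: in the first set it was at 10.1 and 10.05 in normoxia and 9.81 and 9.82 in hypoxia, and in the second at 9.67 and 9.63 and then 9.22 and 9.33.

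The sensors themselves did not pass the test. Eif2ak3 (PERK) differed by -0.01 ± 0.06 (adjusted p = 0.931), Atf6 by 0.02 ± 0.08 (adjusted p = 0.879) and Ern1 (IRE1) by 0.07 ± 0.10 (adjusted p = 0.664). For Atf6 a second probe set of nearly the same mean was called lower, at -0.41 ± 0.08 (adjusted p = 0.00594), so these data do not settle its direction. Xbp1, whose mRNA is spliced by IRE1, fell by 0.23 ± 0.06 (adjusted p = 0.0266). Its lowest array was wild-type hypoxia of the first set, at 11.3, against 11.56 to 11.66 on the other hypoxia arrays and 11.68 to 11.83 in normoxia. Xbp1 lost the call in 6 of the 8 fits that left out 1 array, that of the lowest array included, and none of its other 3 probe sets passed. Array values of this kind do not separate spliced from unspliced Xbp1, nor report sensor activation.

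Of the 8 ER degradation genes, 2 fell and 6 did not pass, where 15.2% of all tested genes were called lower. Edem1, a lectin that extracts misfolded glycoproteins, fell by 0.27 ± 0.06 (adjusted p = 0.0135), from 10.9, 11.13, 11.01 and 11.15 in normoxia to 10.53, 10.94, 10.78 and 10.85 in hypoxia. It was lower in each of the 4 pairs although the ranges overlap. Its second probe set, at -0.045, did not pass (adjusted p = 0.642, limma). Syvn1 (HRD1), the ubiquitin ligase of the pathway, fell by 0.285 ± 0.089 (adjusted p = 0.0433), but its second probe set gave 0.02 (adjusted p = 0.901). Sel1l, the partner of Syvn1, had 0.105 ± 0.061 (adjusted p = 0.246), and its second probe set was called lower at -0.48. Herpud1 had -0.10 ± 0.06 (adjusted p = 0.256), Edem2 0.23 ± 0.14 (adjusted p = 0.26), and Derl1, at -0.135 ± 0.049, missed the threshold (adjusted p = 0.0719). Of the 4 Derl1 probe sets, 2 were called lower, at -0.28 and -0.26. Derl2 had 0.06 ± 0.06 (adjusted p = 0.475) and Derl3, at 5.32 to 5.46 on all arrays, -0.095 ± 0.090 (adjusted p = 0.488).

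Of the 4 translocon genes only Sec61b was called, at 0.13 ± 0.04 (1.10-fold, adjusted p = 0.045, limma), and it lost the call whichever array was left out. Its arrays overlapped, from 12.55 to 12.91 in normoxia and from 12.75 to 12.97 in hypoxia. Ssr1 and Ssr3, subunits of the translocon-associated complex, had 0.055 ± 0.044 (adjusted p = 0.4) and -0.105 ± 0.068 (adjusted p = 0.302). The second probe set of Ssr3 was called lower, at -0.23 ± 0.05 (adjusted p = 0.0129, limma). Sec61a1, the channel itself, had -0.03 ± 0.04 (adjusted p = 0.667) on its brightest probe set.

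The probe sets of Sec61a1 disagreed more than those of any other of the 34 genes, which was seen when every named probe set was fitted on its own, an analysis chosen after seeing the data. Of its 6 probe sets, 3 were called higher, by 0.46 ± 0.06, 0.76 ± 0.10 and 1.03 ± 0.10, 1 was called lower, at -0.935 ± 0.136, and 2 did not pass. The one that rose most was at 5.73 and 6.69 in wild-type normoxia and 7.2 and 7.73 in wild-type hypoxia, and at 5.84 and 6.63, then 6.71 and 7.38, in knockout. The one that fell was at 7.38 and 6.5, then 6.15 and 5.86, in wild type, and at 7.48 and 6.42, then 6.5 and 5.53, in knockout. Within each set and genotype both moved their own way in every pair. In this fit 13.9% of 26216 tested probe sets were called lower and 13.7% higher. The 34 genes had 80 tested probe sets, of which 25 were called lower, 10 higher and 45 did not pass. For 22 genes more than 1 probe set was tested: in 3 (Calr, Ero1a and Pdia6) all were called one way, in 5 none was called, and in 2 (Dnajc3 and Sec61a1) calls went both ways. In 8 genes the probe set used did not pass but another did, among them Derl2 (-0.79 ± 0.10), Canx (-0.655 ± 0.096) and Hyou1 (0.855 ± 0.197). That Hyou1 probe set lay near the floor, with a mean of 4.18 against 3.915 at the filter on low probe sets. The sources used here do not say which part of a transcript each probe set reads.

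**Figure D3:**
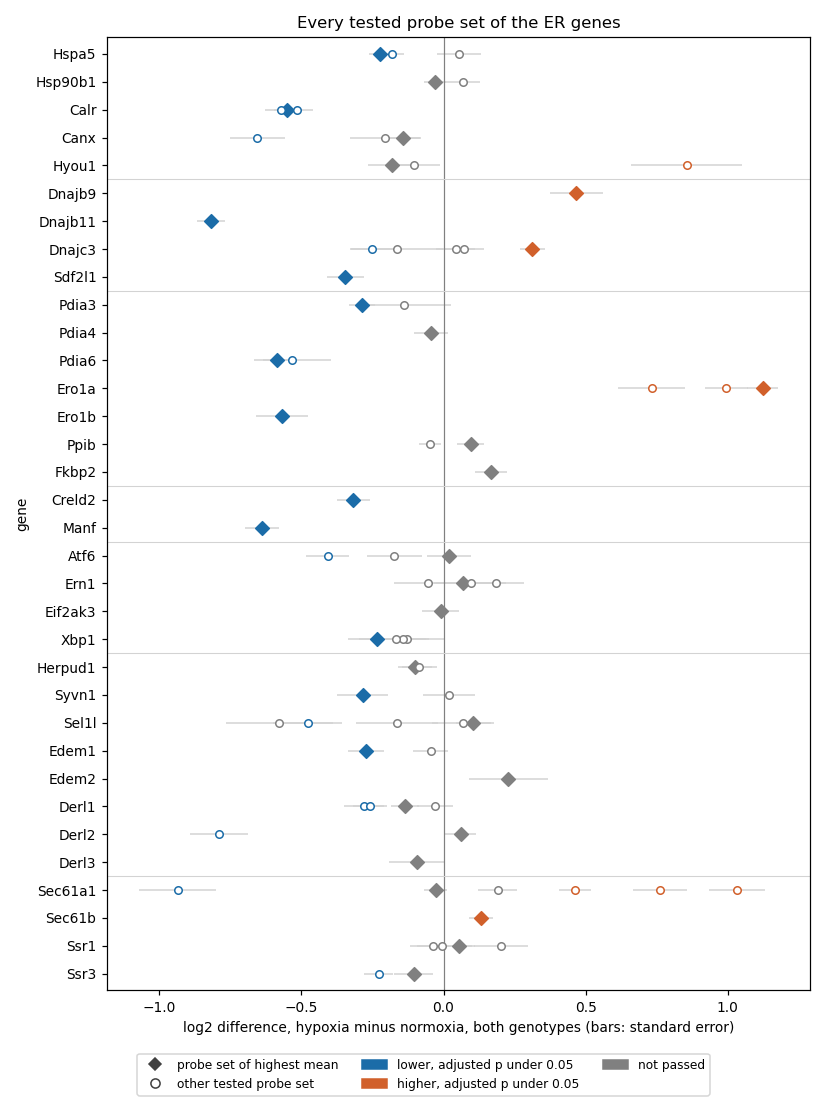
Each point is a tested probe set of the gene named at the left, with its log2 difference between hypoxia and normoxia over both genotypes on the x axis and its standard error as a bar. Diamonds are the probe sets of highest mean, circles the others, blue points were called lower, orange points higher, and grey points did not pass. The 3 points of Calr lie together near -0.55, while the 6 of Sec61a1 run from -0.935 to 1.03.

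Within each genotype the same comparison has 2 arrays a side and fewer calls. In wild type 10 of the 34 genes fell and 3 rose, against 8.85% and 7.54% of all tested genes. In knockout 8 fell and 2 rose, against 5.13% and 4.98%. These counts depend on the block: with no replicate block for the set, the wild-type counts were 0 and 1, the knockout counts 0 and 0, and the counts over both genotypes 2 and 1. Without a wild-type normoxia array the wild-type counts were 5 lower (first set) or 4 lower (second set), without the hypoxia arrays 4 or 8, and in each case 1 higher. Without a knockout normoxia array the knockout counts were 1 or 2 lower, without the hypoxia arrays 4 or 2, and in each case 1 higher. Ero1a and Dnajb11 held in all 8 such fits in both genotypes, and Calr, Manf and Pdia6 in all 8 in wild type, whereas Sdf2l1 held in none in either.

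The rise of Ero1a was 1.355 ± 0.077 in wild type (2.56-fold, limma's adjusted p = 7.65e-05) and 0.89 ± 0.08 in knockout (1.85-fold, adjusted p = 0.00115). Dnajb11 fell by 0.90 ± 0.07 in wild-type cells and by 0.735 ± 0.068 in knockout cells, with adjusted p = 0.000331 and 0.00154. Calr fell by 0.545 ± 0.066 and by 0.555 ± 0.066, with adjusted p = 0.0025 and 0.00387. In both genotypes Pdia6, Manf, Ero1b, Pdia3, Hspa5 and Sdf2l1 also fell and Dnajc3 rose. Dnajb9, Creld2 and Xbp1 passed in wild type and not in knockout, where their differences were 0.41 ± 0.13, -0.265 ± 0.080 and -0.12 ± 0.09. That does not show that the genotypes differ, since none of the 34 interaction terms passed.

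**Figure D4:**
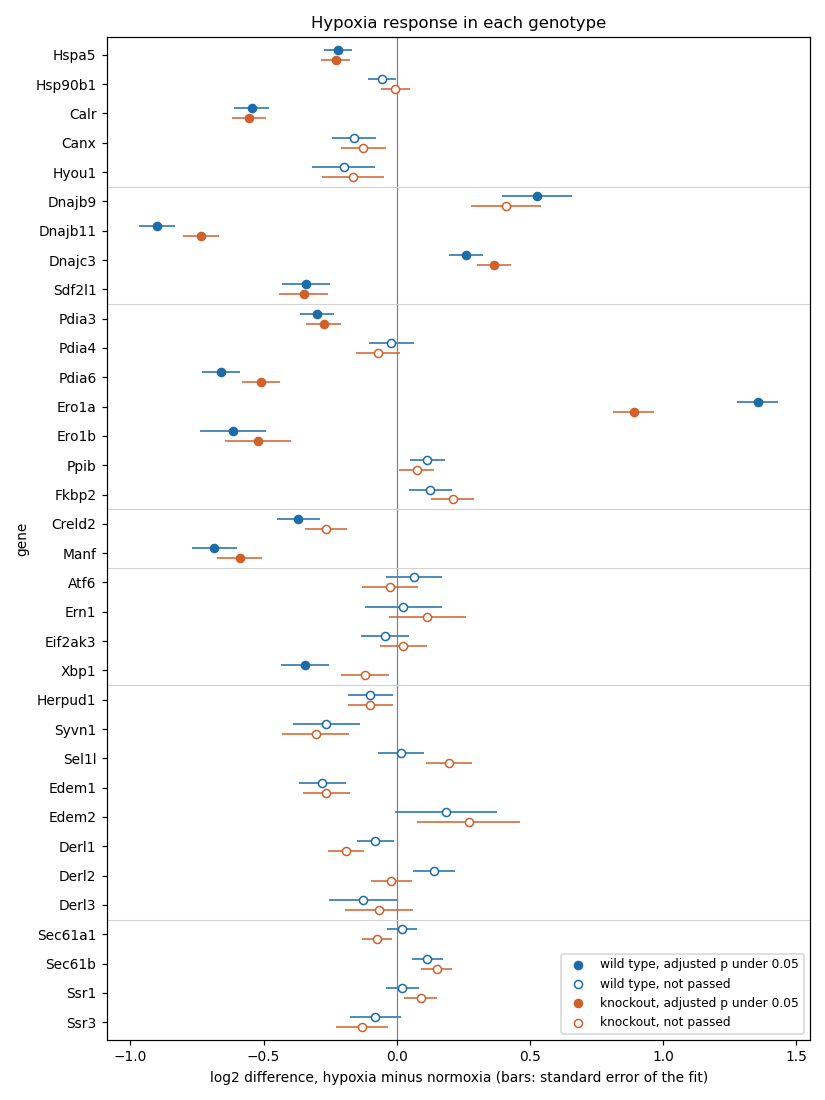
For each gene, the log2 difference between hypoxia and normoxia is plotted for wild type (blue) and knockout (orange) with standard errors of the fit, filled where adjusted p was under 0.05. On the probe sets of highest mean, plotted here, Ero1a shows the widest gap between genotypes, 1.355 against 0.89. The points of Calr nearly coincide, at -0.545 and -0.555.

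None of the 34 genes passed the test between genotypes. For knockout against wild type, 0 of the 34 were called by limma in normoxia (0.0366% of all genes), 0 in hypoxia (0.0293%), 0 over both oxygen conditions (0.256%) and 0 in the interaction (0.0%). With an unadjusted p under 0.05 these counts were 0, 2, 3 and 1, against 6.70%, 5.52%, 10.2% and 2.41% of all tested genes. In normoxia the differences lay between -0.19 and 0.165, and in hypoxia between -0.315 and 0.245. The extremes in hypoxia were Ero1a and Dnajb11. Ero1a was lower in the knockout by 0.25 and 0.38 in the first and second set, a difference of -0.315 ± 0.077 (adjusted p = 0.597). In normoxia it was higher by 0.22 and 0.08. Its interaction was -0.465 ± 0.109, with an unadjusted p of 0.00262 and an adjusted p of 1. Dnajb11 was higher in hypoxic knockout cells by 0.24 and 0.25, a difference of 0.245 ± 0.068 (adjusted p = 0.682). A p that misses the threshold does not show that the genotypes were alike. The macrophage and leukocyte markers, with a median difference of -1.26, and the skeletal muscle markers, with one of -1.02, were also lower in the knockout at the median. For skeletal muscle this held in the first set only. There the mean log2 level was 7.47 in wild type and 5.22 in knockout in normoxia, and 7.345 and 5.45 in hypoxia. In the second set it was 5.625 and 5.75 in normoxia, and 5.57 and 5.88 in hypoxia. The part of both marker lists in these differences was not tested.

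The sets differed in many of these genes. Between them 9 of the 34 were lower in the second and 10 higher, against 20.7% and 25.4% of all tested genes. Those lower were Sec61a1 and 8 genes of folding and secretion, with Creld2 at -0.48 ± 0.06 and Pdia6 at -0.37 ± 0.05. For Hsp90b1, Pdia3, Ppib and Sec61a1 the sign turned with another choice of probe set. Those higher included 5 of the 8 ER degradation genes and 2 sensors: Ern1 at 0.665 ± 0.102, Edem2 at 0.66 ± 0.14, Sel1l at 0.47 ± 0.06, Herpud1 at 0.46 ± 0.06, Derl1 at 0.32 ± 0.05 and Atf6 at 0.32 ± 0.08. The actin control's 3′ minus 5′ difference also moved with the set, with differences of -0.16 to -0.26 between second and first in all 4 groups. That of the Gapdh control differed by -0.25, -0.16 and -0.05 in 3 groups and by 0.07 in hypoxic knockout cells. The medians of the macrophage and of the skeletal muscle markers were also lower in the second set. From first to second set the skeletal muscle mean fell in wild type (7.47 to 5.625 in normoxia, 7.345 to 5.57 in hypoxia). In knockout it rose (5.22 to 5.75 in normoxia, 5.45 to 5.88 in hypoxia). The part of these controls and markers in the set differences was not tested.

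When each gene's variation over the 8 arrays was divided among the terms of the balanced design, oxygen took a median of 41.9% over the 34 genes, against 16.4% over all tested genes. Set took 28.8% against 35.6%, and genotype 1.76% against 3.21%. Oxygen was the largest share in 18 of the 34 genes, set in 12, genotype in 2 and the remainder in 2, against 27.7%, 47.1%, 5.15% and 17.3% of all tested genes. Oxygen took 94.8% in Ero1b, 94.6% in Manf and in Calr and 93.5% in Ero1a. Set took 92.7% in Hsp90b1, 88.9% in Ern1 and 87.8% in Sel1l. The Hsp90b1 share is that of its probe set of highest mean, and its second probe set did not follow the set. The 2 genes in which genotype led were Eif2ak3 (55.1%) and Ssr1 (36.5%), both with small total variation: Eif2ak3 lay between 8.78 and 9.08 on all arrays. These shares describe the same values as the tests above.

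**Figure D5:**
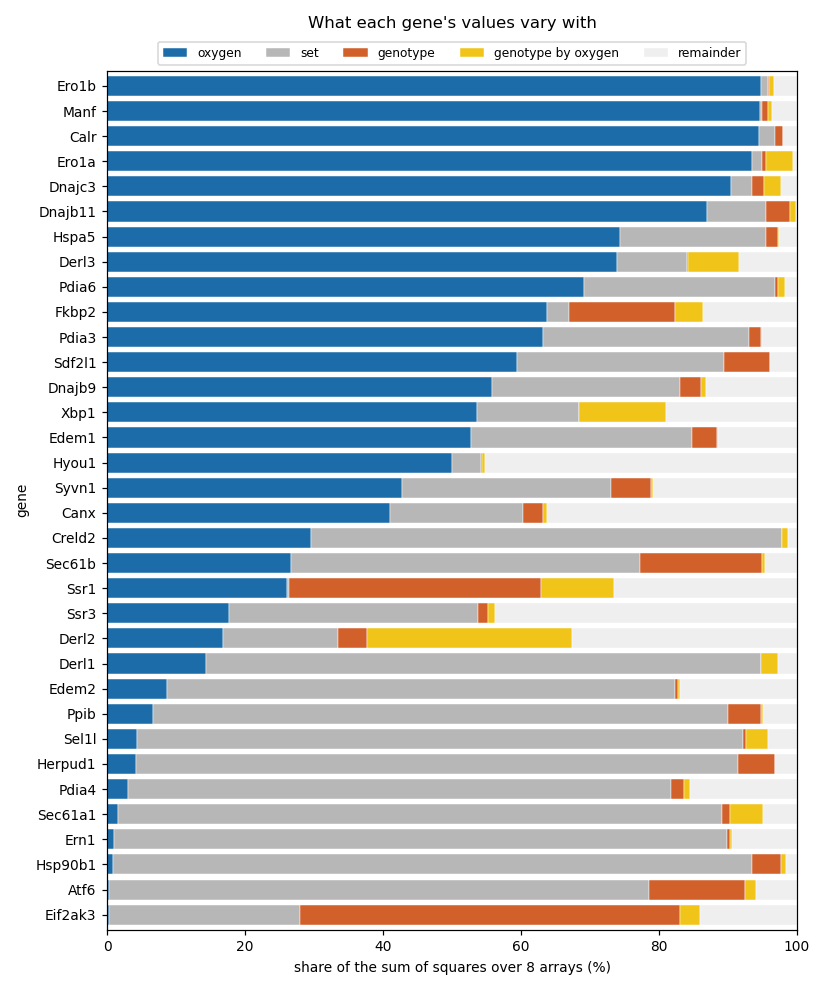
Bars give, for each of the 34 genes, the share of its sum of squares over 8 arrays that goes with oxygen, set, genotype, genotype by oxygen and the remainder, ordered by the oxygen share. Ero1b, Manf, Calr and Ero1a lead, with 93.5% to 94.8% from oxygen, and the bars of Hsp90b1 and Ern1 are mostly set. All bars are of the probe set of highest mean.

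In 6 further lists of ER genes, 92 genes in all and 87 tested, 28 were lower and 12 higher in hypoxia over both genotypes, against 15.2% and 13.6% of all tested genes, and 0 differed by genotype at the threshold. Of 15 regulators of the unfolded protein response 6 fell and 1 rose, among the former Ddit3 (CHOP, a stress-induced transcription factor, -0.79 ± 0.07), Creb3l2 (-0.45 ± 0.07), Trib3 (-0.43 ± 0.08) and Serp1 (-0.40 ± 0.05). Of 19 further oxidoreductases and isomerases 8 fell, including Fkbp14 (-0.555 ± 0.077), Pdia5 (-0.495 ± 0.066) and Ppic (-0.415 ± 0.044), and 1 rose, the peroxiredoxin Prdx4 (0.32 ± 0.04). Of 14 genes of glycan transfer and trimming 5 fell and 2 rose, with Rpn1 of the oligosaccharyltransferase at -0.35 ± 0.04 and the glucosidase subunit Ganab at 0.41 ± 0.07. Of 13 genes of translocation and signal peptidase 6 fell, including Spcs3 (-0.40 ± 0.06) and Sec11a (-0.36 ± 0.04), and 1 rose, Sec62 (0.28 ± 0.05). The remaining lists had more rises than falls. Of 15 further ER degradation genes 4 rose and 2 fell, and of 11 genes of retrieval and export 3 rose, among them the KDEL receptor Kdelr1 (0.46 ± 0.09), and 1 fell.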

How the data were processed

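The authors deposited 1 table of log2 expression values, to 2 decimals, for 45101 probe sets on 8 one-colour arrays, made by RMA per the submitters' processing notes (no version or genome build given there). RMA gives all arrays one distribution and so hides any shift common to the whole transcriptome. Per the labels, each array started from 5 ug of total RNA. Gene names came from the platform annotation (34945 with 1 symbol, 932 with several, not used, 9160 unlisted), with symbols updated through a RefSeq GRCm38.p6 table. The members and gene lists were chosen with earlier results of these data known.

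The probe set of highest mean stood for each of 18193 genes, and genes below the 25th percentile of means were left out, leaving 13647. In limma 3.58.1 (R 4.3.3), 4 group means plus the set were fitted, with eBayes and a mean-variance trend. There were 3 residual degrees of freedom, to which moderation added 5.22. A gene is called at an adjusted p under 0.05 (Benjamini-Hochberg, every tested gene), and errors are standard errors, all tests two-sided. Pairing by set came from the labels, and all 6 pairs of groups had correlated set differences (0.710 to 0.850), so the set is a block. The number of arrays limits precision. The fit was also run on simulated data with independent noise and a set shift per gene shared by all groups. That simulation could not show how the fit fares where the set shift differs between groups. The genes named are the members and, from each further list, called genes. Alternatives tried were other normalizations, filters, probe set rules, variance models, block settings and leaving out each array.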

Additional observations from a re-analysis of the deposited data

Results flagged for a closer look

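In groups of 2 arrays no single array could be tested as far from the rest. In 5 results both arrays of a group pair moved one way and both of the other the opposite way, and in none did the interaction pass (limma, adjusted p = 1). Ero1a was higher in the knockout in normoxia, by 0.22 and 0.08 in the first and second set, and lower in hypoxia, with differences of -0.25 and -0.38. Its interaction was -0.465 ± 0.109 (unadjusted p = 0.00262). Pdia6 was lower in the knockout in normoxia (-0.2 and -0.04) and slightly higher in hypoxia (0.05 and 0.01), with an interaction of 0.15 ± 0.10. Creld2 did likewise, with -0.05 and -0.04 in normoxia, 0.01 and 0.11 in hypoxia and an interaction of 0.105 ± 0.113. Derl2 did so in both contrasts, here with 0.25 and 0.03 for hypoxia in wild type against -0.01 and -0.03 in knockout, 0.19 and 0.03 for knockout against wild type in normoxia, -0.07 and -0.03 in hypoxia, and an interaction of -0.16 ± 0.11. The other Derl2 probe set was called lower in hypoxia in both genotypes, at -0.745 ± 0.143 in wild type and -0.835 ± 0.143 in knockout. Values of a few hundredths are close to the 2 decimals in which the table is written.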

How the results depend on the processing

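The direction of the 58 calls over the oxygen and set comparisons held under another normalization, filter or variance model, and reversals came only from other probe sets. With no replicate block for the set, 0 genes were lower and 1 higher in wild type, 0 and 0 in knockout, and 2 and 1 over both genotypes. With the set as a random replicate block, wild type had 6 lower and 1 higher and knockout 4 lower. With only the arrays of the comparison, wild type had 4 lower, and knockout 0 lower and 1 higher. With the mean of all probe sets of a gene, wild type had 6 lower, and knockout 5 lower and 1 higher. With eBayes without a trend, wild type had 5 lower and 1 higher, and knockout 5 lower and 1 higher. Leaving out each array in turn gave 4 to 8 lower and 1 to 3 higher in wild type, and 1 to 7 lower and 1 to 2 higher in knockout. Over both genotypes that range was 9 to 12 lower and 3 to 4 higher. Fits without an array, or on 4 arrays, have fewer arrays. For the other settings the cause was not tested.

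With the mean of all probe sets the knockout difference of Dnajc3 was -0.01, and the set differences of Pdia3 and Sec61a1 became 0.1575 and 0.0933. With the probe set of second highest mean, the oxygen difference of Syvn1 was 0.02, and the set differences of Hsp90b1, Pdia3 and Ppib were 0.0075, 0.5125 and 0.0275. Of the 58 calls, 57 held with arrays centred on their median, 58 with quantile normalization, 58 with robust eBayes, 58 with a filter at the 50th percentile and 56 with no filter. RMA had already given all arrays one distribution, so quantile normalization could change little. Fewer held elsewhere: 40 of 58 with eBayes without a trend and 36 of 58 with the mean of all probe sets. With the probe set of second highest mean 14 of 34 held. With the set as a random replicate block 27 of 39 held, with no replicate block 4 of 39, and with only the arrays of the comparison 7 of 23. The scalings moved the median of all genes by at most 0.025. In all of these fits the count of the 34 genes called by genotype was 0 (limma).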
